A study of Mus musculus with 48 samples.

Results

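The 12 mice described here were male C57Bl/6J mice that received preformed fibrils (PFFs) of mouse α-synuclein (α-syn) into the right striatum and then breathed 21% O2, and they were 12 of the 48 mice of the series. The other groups, used below for comparison, received PFFs and breathed 11% O2, or received α-syn monomer and breathed 21% or 11% O2. The 12 were chosen by label alone: treatment PFF and oxygen level normoxia. Their replicate numbers were 1 to 4 in batch 1, 5 to 8 in batch 2 and 9 to 12 in batch 3, with 4 mice in each batch. A batch is a harvest date. Batch 2 was harvested 6 days after batch 1 and batch 3 came 8 days after batch 2. At harvest the mice of batches 1 and 3 were 30.3 weeks old, 91 days after injection, and those of batch 2 were 30.1 weeks old, 90 days after injection. Treatment, gas, strain, sex and age were thus the same to within 1 day, while the dates of birth, injection and harvest moved together and cannot be told apart. The hour of harvest and the dates of RNA extraction and library preparation are not given in the sources used here. RNA was sequenced from the dissected, fresh-frozen substantia nigra (SN), and mice are called below by their replicate numbers. In this model fibrils injected on 1 side seed aggregates of the mouse's own α-syn, and a dissected SN holds neurons, glia, vessels and whatever neighbouring tissue came with it. In bulk RNA, fewer cells of a type and less RNA per cell cannot be told apart. *Th*, the rate-limiting enzyme of dopamine synthesis, was read at 185.2 to 884.6 TPM in all 12 mice, TPM being a level scaled to transcript length and library size. The p-values below measure the spread between these mice, since each batch is a single date.

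The comparison asks which genes differ between harvest dates when nothing in the treatment does. Most cells keep time with a feedback loop in which CLOCK and BMAL1 (the product of *Arntl*) bind E-box sequences and switch on their own repressors, the *Per* and *Cry* genes and *Nr1d1*, together with output genes such as *Dbp* and *Ciart*. Heat shock factor HSF1 switches on chaperone genes through heat shock elements, and a lower body temperature raises the cold-inducible RNA-binding proteins CIRBP and RBM3 and alters splicing through CLK kinases. These programs can respond to the hour of the day and to handling, and a dissection that takes more or less of the surrounding tissue moves the markers of dopaminergic (DA) neurons, glia, vessels and meninges.

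Promoter sequences of 2 genes that differed between batches show the elements named above, 1 for the clock and 1 for heat shock. They are RefSeq sequences of build GRCm38.p6, from 250 bases before to 50 bases after the annotated start, 5′ to 3′ on the gene's strand. *Ciart*, a transcriptional repressor of the clock, lies on the minus strand, and its window is chr3:95882179-95882478. Capitals mark the E-box CACGTG, which reads the same on both strands, at 116, 58 and 44 bases before the start. *Chordc1*, a co-chaperone of HSP90, lies on the plus strand with the window chr9:18292017-18292316. Its capitals mark a run of 23 bases around the start that holds 3 overlapping matches of the heat shock element GAANNTTCNNGAA, searched on both strands.
Ciart: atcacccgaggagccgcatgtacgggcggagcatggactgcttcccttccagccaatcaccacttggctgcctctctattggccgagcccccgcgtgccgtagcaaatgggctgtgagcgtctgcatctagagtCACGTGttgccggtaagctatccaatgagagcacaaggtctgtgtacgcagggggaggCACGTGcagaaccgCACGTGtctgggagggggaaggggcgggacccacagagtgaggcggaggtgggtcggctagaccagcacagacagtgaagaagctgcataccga
Chordc1: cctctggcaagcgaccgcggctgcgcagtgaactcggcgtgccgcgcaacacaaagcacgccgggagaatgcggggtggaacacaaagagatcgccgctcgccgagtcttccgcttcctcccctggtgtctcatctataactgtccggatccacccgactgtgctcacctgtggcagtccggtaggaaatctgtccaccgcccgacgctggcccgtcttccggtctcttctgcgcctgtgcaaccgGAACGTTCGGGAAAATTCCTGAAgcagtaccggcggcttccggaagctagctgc
Of all 32851 promoter windows, 7.15% held the E-box, 3.385% the D-box TTATGNAA and 0.603% the heat shock element. Of 14 clock repressor and output genes, 12 had a window, and the E-box stood in those of *Bhlhe41*, *Ciart*, *Cry1*, *Per1* and *Tef* and the D-box in those of *Per1* and *Per3*. Of 21 heat shock genes, 17 had a window, and the heat shock element stood in those of *Chordc1*, *Hspd1*, *Hspe1* and *Hsph1*. The windows of *Dbp*, *Nr1d1*, *Cirbp*, *Hspa1b* and *Dnajb1*, also described below, held no E-box, D-box or heat shock element of these forms. A match is a description of these windows and no evidence of binding.

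Libraries held 13428753 to 16650480 counts, and 26994 to 28017 genes had at least 1 count. After a filter on low counts 18086 genes were tested with edgeR's quasi-likelihood test, and a gene was called when its Benjamini-Hochberg adjusted p was under 0.05 and its log2 fold change beyond 0.25 in either direction. Across the 3 batches 104 genes were called (0.575% of those tested). Between batches 2 and 1 there were 9 (0.0498%), 1 higher (0.00553%) and 8 lower (0.0442%) in batch 2. Between batches 3 and 1 there were 626 (3.46%), 230 higher (1.27%) and 396 lower (2.19%) in batch 3. Between batches 3 and 2 no gene was called (0%), with a smallest adjusted p of 0.368. In that last comparison 714 genes had an unadjusted p under 0.05 (3.95%), limma on log2(TPM + 1) called 0 genes, and DESeq2 called *Anxa1* and *Aldh1a1* (0.00543% of the genes it tested). The same share was 20.8% for batches 2 and 1 and 24.6% for batches 3 and 1.

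The 626 differences were mostly small. Their absolute log2 fold changes ran from 0.25 to 2.00 with a median of 0.374, and 29 exceeded 1. In 598 of them the 4 mice of batch 3 did not overlap the 4 of batch 1 on the log2 CPM scale, where 15.4% of all genes tested did not overlap (6.61% higher and 8.78% lower in batch 3). The share not overlapping was 14.8% for batches 2 and 1 and 1.82% for batches 3 and 2. The mean of batch 2 lay between batches 1 and 3 for 551 genes, beyond batch 3 for 72 and on the other side of batch 1 for 3. These counts describe the shape of the calls and are no test, since both contrasts share the mice of batch 1 and the choice of the genes in part fixes where batch 2 lies.

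How many genes passed depended on single mice. The count of 104 ran from 0 to 650 and that of 9 from 0 to 246 as each mouse in turn was left out. The count of 626 became 0 without mouse 1 or without mouse 2, 95 without mouse 3, 330 without mouse 4, 911 without mouse 5, 387 without mouse 6, 353 without mouse 7, 1011 without mouse 8, 30 without mouse 9, 1248 without mouse 10, 105 without mouse 11 and 198 without mouse 12. With 4 against 4 mice, simulated counts with a known change of 0.5 on the log2 scale were called in 35.4% of 96 genes, and a change of 1 in 80.8% of 99 genes.

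The first principal component separated mice within dates, and the second set batch 1 apart from batch 2. Principal component 1 of 6906 genes held 37.9% of the variance, and mice 10 and 12 of batch 3 stood at its high end at 10.8 and 11.1 while mouse 5 of batch 2 stood at its low end at -10.6. The genes loading at the low end included *Th*, *Slc6a3*, *Slc18a2*, *Ret* and *Slc17a6*, and those at the high end *Flt1*, *Ptprb*, *Vtn*, *Hba-a1*, *Gfap* and *C1qa*. Component 2 held 33.0%, and batch 1 lay at -7.6 to -3.7 and batch 2 at 1.3 to 5.7. Batch 3 was split there, with mice 9 and 11 at 9.1 and 10.7 and mice 10 and 12 at -8.4 and -4.1. *Clk1*, *Tra2a*, *Zkscan3* and *Klhl28* were among the genes loading at the low end, where batch 1 lay. The genes at its high end included *Slc17a6*, *Ret* and *Th*, which also loaded at the low end of component 1. Because mice 10 and 12 stood apart, many results for batch 3 are given below also without them, a choice made after seeing the data. Without them 1976 genes were called between batches 3 and 1, 701 between batches 2 and 1, and 2 between batches 3 and 2 (*Gm10800* and *Galnt6*).

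**Figure D1:**
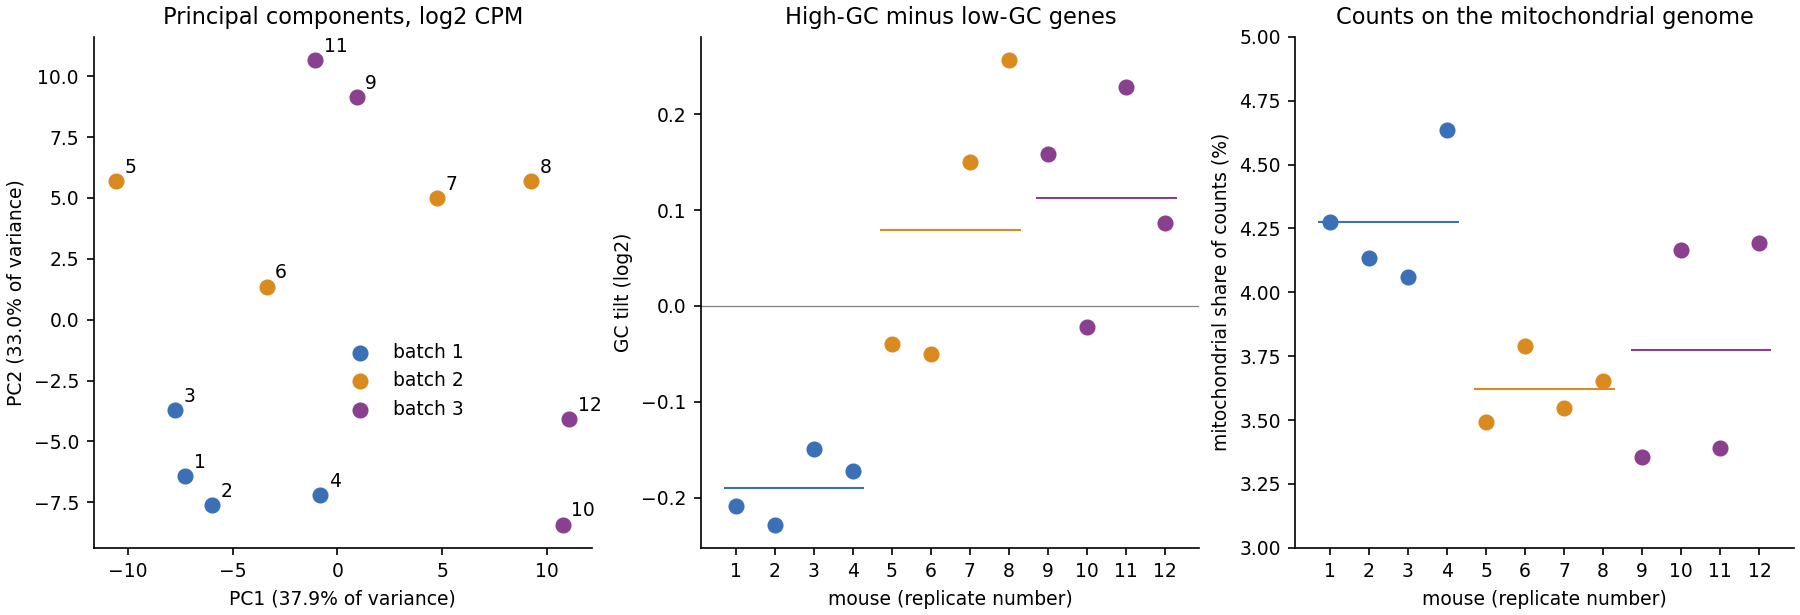
The 12 mice by batch. Left, scores on principal components 1 and 2 (37.9% and 33.0% of the variance of 6906 genes); middle, each mouse's GC tilt (log2, defined in the text); right, the share of counts on mitochondrial genes (percent), with short lines at batch means. Batch 1 lies low on component 2 and on GC tilt, and mice 10 and 12 lie at the high end of component 1.

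Batch 1 also differed from the later batches in how counts depended on the base composition of transcripts. The GC tilt of a mouse is the median log2 deviation from the mean of the 12 mice among the quintile of protein-coding genes with the highest transcript GC content, minus that in the quintile with the lowest. It was -0.21, -0.23, -0.15 and -0.17 in batch 1, -0.04, -0.05, 0.15 and 0.26 in batch 2, and 0.16, -0.02, 0.23 and 0.09 in batch 3. All mice of batch 1 lay under all others. From the lowest to the highest GC quintile, the median log2 fold change of batch 3 over batch 1 was -0.16, -0.05, 0.03, 0.09 and 0.15. The same medians were -0.14, -0.04, 0.02, 0.08 and 0.14 for batch 2 over batch 1. The called genes followed this order, with 258 lower and 3 higher in the quintile of lowest GC (31.9 to 45.2% GC) and 3 lower and 125 higher in the quintile of highest GC (56.3 to 75.6%). The median GC content was 42.6% among genes called lower, 56.9% among those called higher and 50.3% among all tested.

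An alternative chosen after seeing the data took out, for each mouse, the median deviation in each of 20 GC bins. After this centring no gene was called between batches 3 and 1 (smallest adjusted p = 0.0509, with 2978 genes at an unadjusted p under 0.05) and 2 between batches 2 and 1 (0.0111%), *Rln3* (-3.05) and *Mafg* (-0.45, a small Maf transcription factor). All 626 genes kept their sign, 534 kept an unadjusted p under 0.05, and their median absolute log2 fold change went from 0.374 to 0.254. The part of the base composition in each gene's difference was not tested, so log2 fold changes after GC centring are given for most of the named genes.

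**Figure D2:**
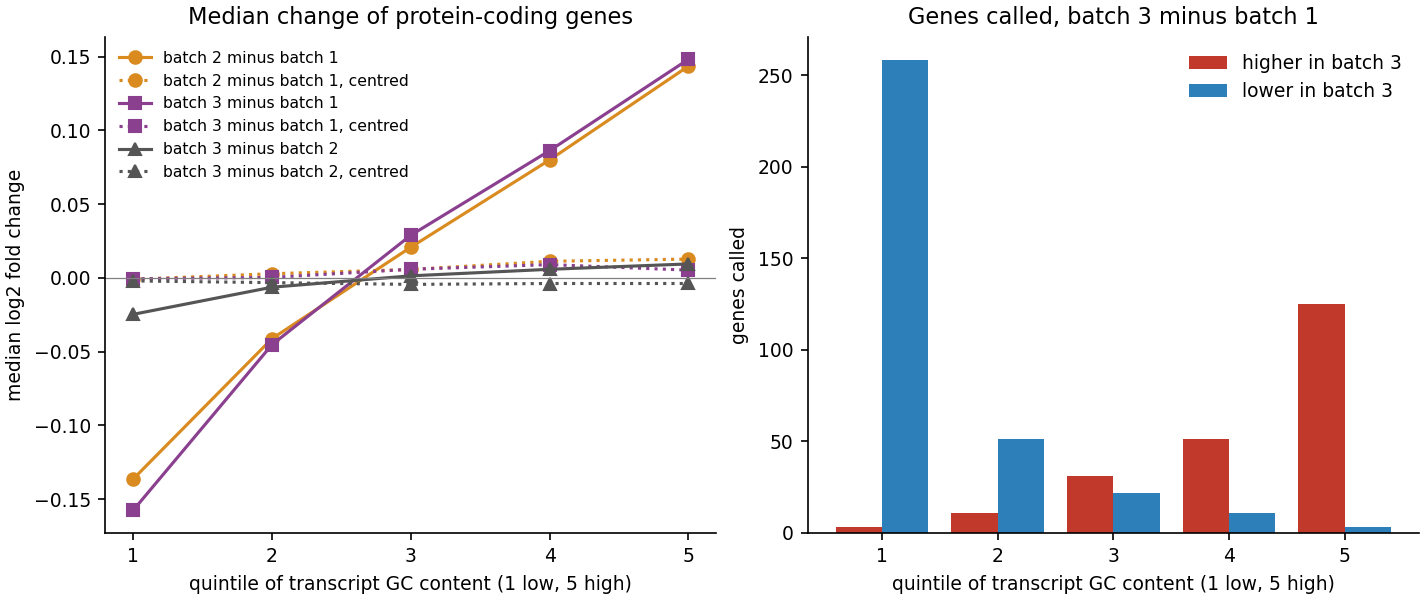
Batch differences and transcript GC content. Lines give the median log2 fold change of protein-coding genes in each GC quintile for the 3 pairs of batches (solid, counts as deposited; dotted, after GC centring), and bars give the number of genes called higher or lower in batch 3 than in batch 1. The solid lines against batch 1 climb from -0.16 and -0.14 to 0.15 and 0.14, and called genes are lower at low GC and higher at high GC.

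Clock genes differed between dates: 4 genes of the repressor and output group were called higher in batch 3 than in batch 1, and *Clock* was called lower, where 1.27% of all genes were called higher and 2.19% lower. *Dbp* (ENSMUSG00000059824.12, chromosome 7 of GRCm38 from 45705088 to 45710203, plus strand), a transcription factor whose transcript swings widely over the day, stood at 46.6, 47.2, 49.3 and 59.5 TPM in batch 1, 67.6, 67.2, 67.9 and 65.6 in batch 2, and 74.9, 86.6, 73.0 and 94.5 in batch 3. The batches climbed in order of date with no overlap. The log2 fold change was 0.38 in batch 2 (SE 0.0957, adjusted p = 0.0827) and 0.69 in batch 3 (SE 0.0952, adjusted p = 0.0192) over batch 1. After GC centring the difference of batch 3 was 0.56 (adjusted p = 0.0547), and without mice 10 and 12 it was 0.54 (adjusted p = 0.00602).

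*Nr1d1* (ENSMUSG00000020889.11, chromosome 11 from 98767932 to 98775333, minus strand), which encodes the nuclear receptor REV-ERBα that represses *Arntl*, was the 1 gene called higher in batch 2. Its levels were 44.1, 53.8, 50.5 and 57.6 TPM in batch 1, 71.2, 71.8, 83.9 and 87.9 in batch 2, and 71.6, 76.2, 67.3 and 73.9 in batch 3. Both later batches lay above batch 1, and between them they overlapped. The log2 fold changes over batch 1 were 0.59 (SE 0.091, adjusted p = 0.0461) and 0.48 (SE 0.0911, adjusted p = 0.0242), and 0.37 for batch 3 after GC centring. *Nr1d1* overlaps *Thra* on the other strand and *Dbp* overlaps *Sphk2*, and counting did not use strand, so reads in those overlaps cannot be assigned.

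*Ciart*, whose E-boxes are printed above, rose from 20.7, 22.3, 22.5 and 26.1 TPM in batch 1 to 28.5, 32.2, 26.5 and 33.7 in batch 3 (log2 fold change 0.39, adjusted p = 0.0427), with batch 2 at 25.9 to 27.5. *Bhlhe40*, a further repressor of E-box genes, went from 32.02 to 37.8 TPM in batch 1 up to 42.6 to 47.5 in batch 3 (0.30, adjusted p = 0.0321), with batch 2 at 40.1 to 45.5. In both genes batch 3 lay above every mouse of batch 1, and GC centring left 0.35 for *Ciart* and 0.27 for *Bhlhe40*. Their sisters in the loop did not pass: the log2 fold change of batch 3 over batch 1 was 0.21 for *Per1*, -0.21 for *Per2*, -0.08 for *Per3*, 0.05 for *Cry1*, 0.23 for *Cry2* (adjusted p = 0.0547), -0.19 for *Nr1d2*, 0.00 for *Tef* and 0.01 for *Hlf*. In all, 11 of 14 repressor and output genes had a positive value and 4 were called higher and 0 lower, with a median of 0.15 beside 0.01 over all genes tested. After GC centring 10 of 14 were positive with a median of 0.05.

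Among 7 genes of the activating arm or of opposite phase, *Clock* was called lower in batch 3, at 23.3, 28.7, 24.1 and 24.5 TPM in batch 1 against 21.1, 21.4, 20.1 and 20.2 (log2 fold change -0.29, adjusted p = 0.0325). Every mouse of batch 3 lay under every mouse of batch 1. GC centring left -0.11. *Arntl*, its partner, stood at 8.94 to 9.80 TPM in batch 1 and 7.84 to 9.97 in batch 3 (-0.08), and 1 of the 7 was positive, with a median of -0.16.

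Clock genes of the other mice of these dates had values of their own. In the 10 PFF mice at 11% O2 that the study kept, the log2 fold change of batch 3 over batch 1 was -0.33 for *Dbp* (adjusted p = 0.16), 0.03 for *Nr1d1* and 0.44 for *Arntl* (adjusted p = 0.014), with 5 of 14 repressors positive and 5 called lower, where 3.7% of all genes were called lower. In the 11 mice given α-syn monomer at 21% O2, harvested in batches 1 and 2 alone, *Dbp* was lower in batch 2 by a log2 fold change of -0.70 (adjusted p = 0.007) and *Ciart* by -0.48 (adjusted p = 0.0096), where 7.74% of all genes were called. In these monomer mice at 21% O2, 2 of 14 repressor and output genes were positive (median -0.19). There 4 were called lower, where 616 of 17729 genes were. In monomer mice at 11% O2, 2 of the 14 were positive for batch 3 over batch 1 (median -0.175). None was called there, nor was any of 17780 genes. The test of the difference between the batch effects of PFF mice at 21% and 11% O2 called none of 18775 genes after adjustment (0%). Its smallest adjusted p was 0.858, and 1059 genes (5.64%) had an unadjusted p under 0.05. The same test gave unadjusted p = 9.1e-05 for *Dbp* and 0.0011 for *Nr1d1*. Both genes were named for their batch differences in the PFF mice at 21% O2, which also enter this test. That choice favours small unadjusted p-values, so no difference between the groups is concluded from them. For the monomer groups the difference in batch effect was not tested.

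**Figure D3:**
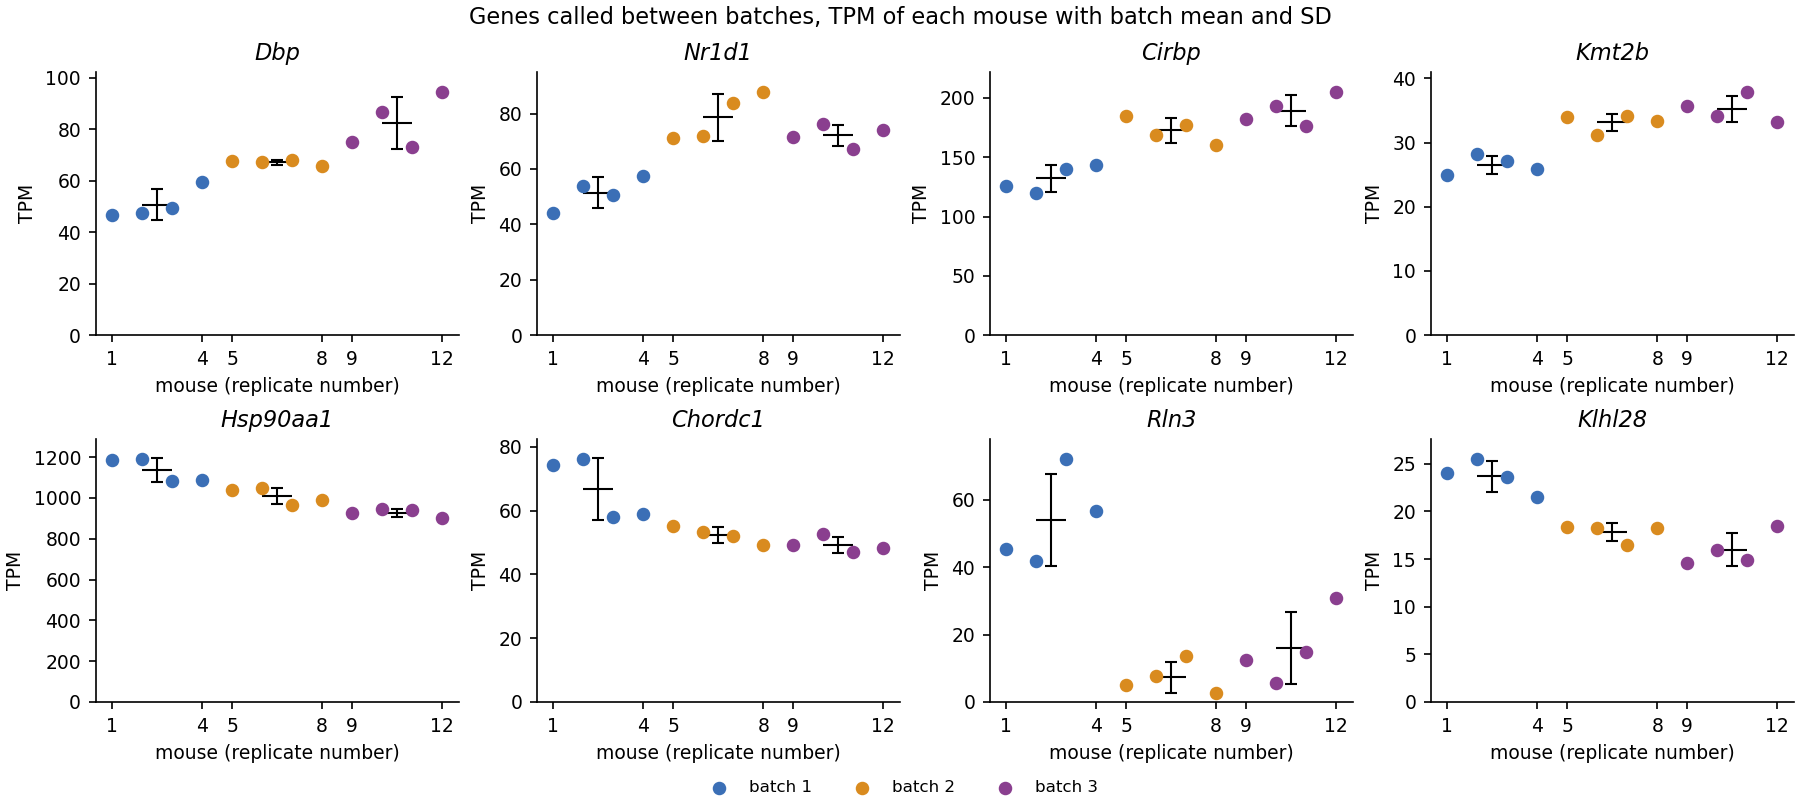
Levels of *Dbp*, *Nr1d1*, *Cirbp*, *Kmt2b*, *Hsp90aa1*, *Chordc1*, *Rln3* and *Klhl28* (TPM, linear axes) in each of the 12 mice, by batch, with the batch mean and SD (n = 4). The first 4 genes are higher and the last 4 lower in batch 3 than in batch 1, and in each the mean of batch 2 lies on the side of batch 3.

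Temperature-responsive genes called between batches 3 and 1 were *Cirbp*, which was higher in batch 3, and *Clk1*, which was lower. *Cirbp* (ENSMUSG00000045193.13, chromosome 10 from 80165985 to 80172786, plus strand) had 125.7, 120.2, 139.8 and 143.7 TPM in batch 1, 184.9, 169.1, 177.1 and 160.4 in batch 2, and 182.1, 193.6, 176.0 and 205.3 in batch 3. The 8 later mice lay above the 4 of batch 1. The log2 fold change of batch 3 was 0.51 (SE 0.075, adjusted p = 0.0202) and that of batch 2 was 0.36 (adjusted p = 0.0613), with 0.38 for batch 3 after GC centring. *Rbm3*, its closest relative, had -0.10 in batch 3 and -0.27 in batch 2, neither called. The kinase gene *Clk1*, whose product phosphorylates splicing factors, fell from 96.6, 99.0, 92.9 and 78.7 TPM in batch 1 to 55.1, 83.3, 52.2 and 75.9 in batch 3 (-0.47, adjusted p = 0.0481), with batch 2 at 62.1 to 65.3. In batch 3 the values were split, mice 10 and 12 standing near batch 1, and GC centring left -0.26. Of the 6 cold-inducible genes *Cirbp* was called higher and *Clk1* lower, where 1.27% of all genes were called higher and 2.19% lower. Of the 6, 2 were positive, with a median of -0.14. Without mice 10 and 12, 1 of the 6 was positive (median -0.23), with 1 called higher and 2 lower. In that fit 1049 of 18584 genes were called higher and 927 lower.

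Of 21 HSF1 chaperone genes 3 were called lower in batch 3 than in batch 1, where 2.19% of all genes were. *Hsp90aa1* (ENSMUSG00000021270.13, chromosome 12 from 110690605 to 110702728, minus strand), the inducible HSP90, had 1186, 1193, 1083 and 1089 TPM in batch 1, 1040, 1047, 966 and 989 in batch 2, and 927, 943, 941 and 899 in batch 3. The 3 batches descended in order of date with no overlap, by -0.19 (adjusted p = 0.0943) and then -0.30 (SE 0.0554, adjusted p = 0.0212) against batch 1, and by -0.24 for batch 3 after GC centring. *Chordc1* (ENSMUSG00000001774.8, chromosome 9 from 18292125 to 18317442), whose heat shock elements are printed above, had 74.2, 76.3, 58.0 and 59.1 TPM in batch 1, 55.3, 53.2, 51.9 and 49.2 in batch 2, and 49.1, 52.6, 46.9 and 48.3 in batch 3 (-0.45, SE 0.0811, adjusted p = 0.0212, and -0.22 after GC centring). Both later batches lay under batch 1, and *Chordc1* overlaps *Gm19178* on the other strand. The third called member was *Hspa4l*, an HSP110 relative (-0.26, adjusted p = 0.04995, and -0.11 after GC centring).

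The stress-inducible HSP70 genes had larger differences between mice of a date and did not pass. *Hspa1b* read 43.3, 95.5, 27.7 and 24.3 TPM in batch 1, 10.1, 12.5, 12.8 and 47.1 in batch 2, and 10.2, 8.54, 28.9 and 8.35 in batch 3. Mouse 2 stood highest, and mice 8 and 11 reached into the range of batch 1. Its log2 fold change of -1.79 did not pass (adjusted p = 0.0701), nor did the -1.17 of *Hspa1a* (adjusted p = 0.0622), a near-identical copy between which reads can be split. *Dnajb1*, an HSP40, had 76.8 to 106 TPM in batch 1, 67.9 to 96.5 in batch 2 and 70.8 to 85.0 in batch 3 (-0.30, adjusted p = 0.116). Of 21 heat shock genes 20 had a negative value in batch 3 against batch 1 and 3 were called lower, with a median of -0.20 (-0.17 after GC centring, then with all 21 negative). Their summed level was 6785 to 7410 TPM in batch 1, 6673 to 6936 in batch 2 and 6014 to 6888 in batch 3. The sums thus overlapped between every pair of dates. In PFF mice at 11% O2 the list had a median of -0.01 (batch 3 over 1, 10 of 21 positive, 1 called higher), where 3.95% of all genes were called higher. It had -0.02 in monomer mice at 11% O2 (batch 3 over 1, 7 of 21 positive, none called). In monomer mice at 21% O2 it had 0.02 (batch 2 over 1, 12 of 21 positive, 2 called higher), where 756 of 17729 genes were called higher. In the PFF mice at 21% O2 without mice 10 and 12, 17 of the 21 were negative in batch 3 against batch 1 (median -0.18). There 3 were called lower, where 927 of 18584 genes were.

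Other stress lists held 1 call or none between batches 3 and 1, where 1.27% of all genes were called higher and 2.19% lower. Among 21 tested immediate early genes, which neurons switch on within minutes of activity, none was called and 9 were positive, and *Fos* stood at 11.3 to 16.7 TPM in batch 1 and 10.1 to 18.7 in batch 3. None of 18 glucocorticoid response genes was called (6 positive, median -0.13). None of 18 ER chaperones was called (3 positive, median -0.12). Of 14 ATF4 targets *Atf3* alone was called, at 2.02, 2.35, 1.67 and 2.58 TPM in batch 1 and 3.86, 3.67, 3.82 and 4.08 in batch 3 (log2 fold change 0.83, adjusted p = 0.0474). Batch 2 shared the level of batch 1 at 1.51 to 3.07 TPM. Without mice 10 and 12, 1049 of 18584 genes were called higher in batch 3 than in batch 1. Among them were 2 of 21 immediate early genes, 1 of 18 ER chaperones and 1 of 14 ATF4 targets (not *Atf3*), and still no glucocorticoid response gene.

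**Figure D4:**
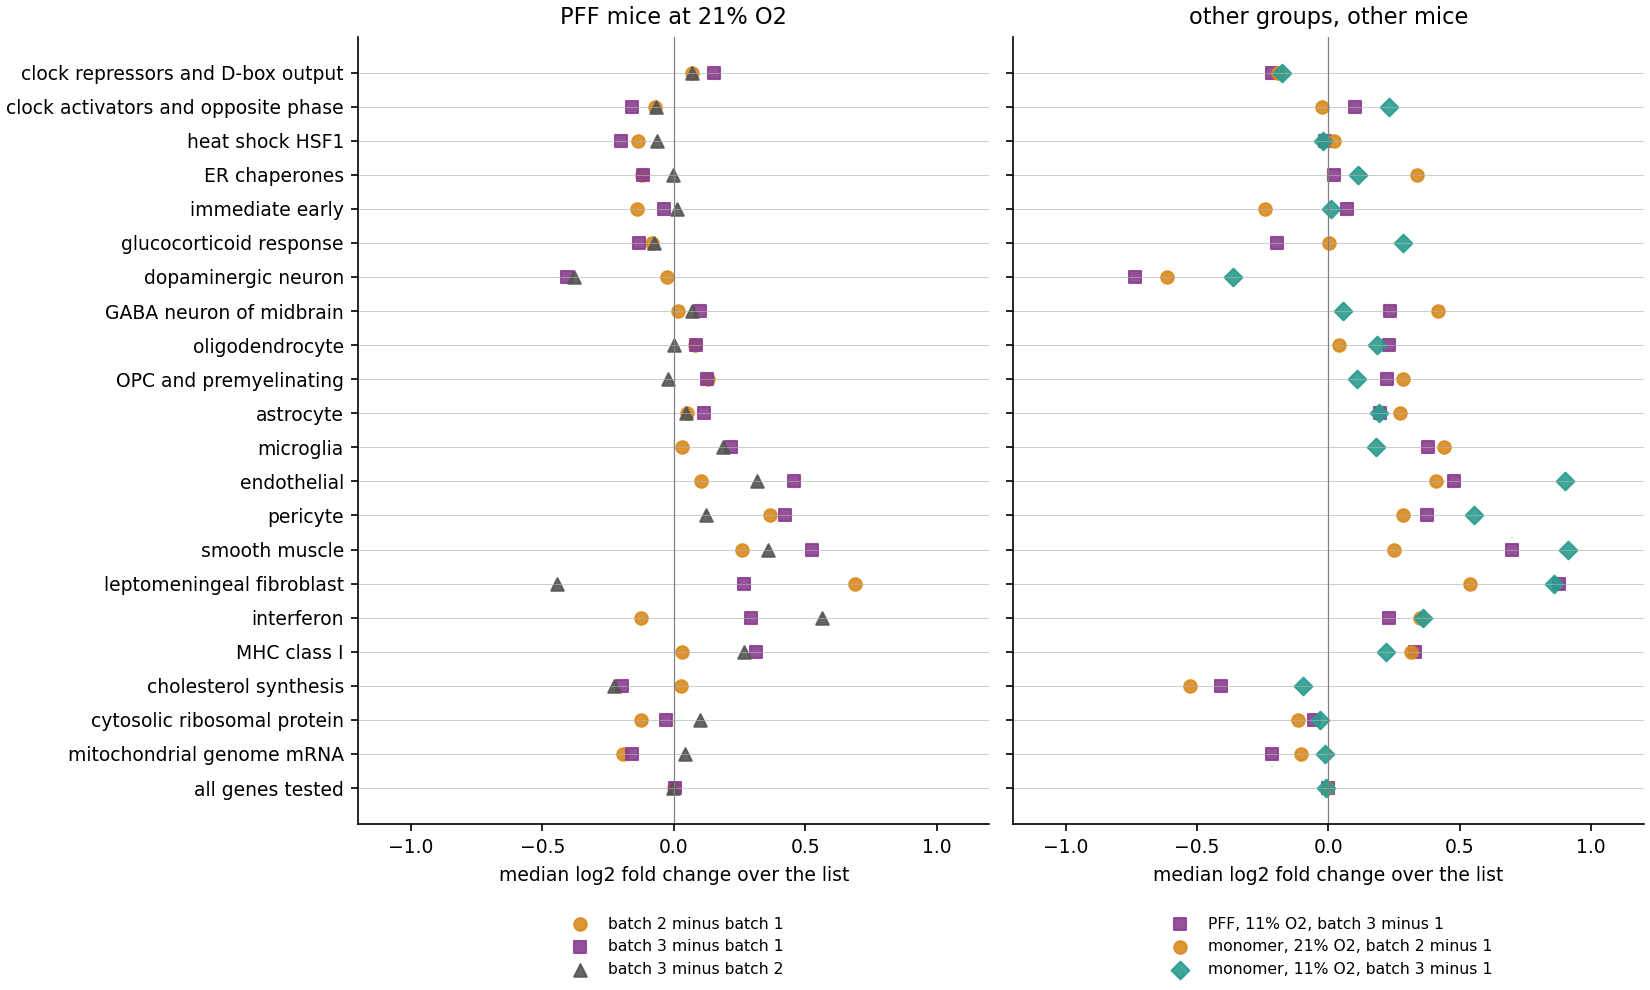
Median log2 fold change of gene lists and of all genes tested. The left panel shows the 3 pairs of batches in the 12 mice, and the right panel shows the same dates in PFF mice at 11% O2, monomer mice at 21% O2 and monomer mice at 11% O2 (kept by the study). Heat shock genes lie under 0 in the 12 mice (-0.20 for batch 3 over batch 1) and near 0 in the other groups, and DA markers lie under 0 in all batch 3 comparisons with batch 1.

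The genes with the smallest p-values across the batches included a neuropeptide and regulators of chromatin and RNA. *Rln3*, which encodes the neuropeptide relaxin-3 of the brainstem (ENSMUSG00000045232.4, chromosome 8 from 84042929 to 84045000, minus strand), was called lower in both later batches. It read 45.2, 41.8, 72.2 and 56.8 TPM in batch 1, 5.14, 7.58, 13.7 and 2.73 in batch 2, and 12.4, 5.73, 14.9 and 30.9 in batch 3. Batch 1 lay above all 8 later mice, by log2 fold changes of -2.89 (SE 0.431, adjusted p = 0.0461) and -1.76 (SE 0.388, adjusted p = 0.0315), which were -3.05 and -1.96 after GC centring. In the other groups its log2 fold change was -2.80 in PFF mice at 11% O2 (batch 3 over 1, adjusted p = 0.031), -2.09 in monomer mice at 21% O2 (batch 2 over 1, adjusted p = 0.058) and -2.25 in monomer mice at 11% O2 (batch 3 over 1, adjusted p = 0.45).

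*Kmt2b*, a histone H3 lysine 4 methyltransferase, was higher later: 24.9, 28.2, 27.1 and 25.8 TPM in batch 1, 33.9, 31.2, 34.1 and 33.3 in batch 2, and 35.8, 34.2, 37.9 and 33.1 in batch 3 (log2 fold change 0.40 in batch 3, adjusted p = 0.0192). *Slc6a6*, the taurine transporter, went from 43.4, 51.5, 50.5 and 47.2 TPM in batch 1 to 59.7, 63.6, 59.4 and 60.2 in batch 3 (0.33, adjusted p = 0.0202). The non-coding *Gm33858*, which overlaps *Cx3cr1* on the other strand, had 0.911 to 1.88 TPM in batch 1, 4.20 to 5.19 in batch 2 and 3.19 to 7.58 in batch 3 (1.82, adjusted p = 0.0202, and 1.80 after GC centring). In these 3 genes no later mouse reached down to batch 1. GC centring left 0.28 for *Kmt2b* and 0.22 for *Slc6a6*.

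Genes lower on the later dates included the splicing regulator *Tra2b*, at 41.7, 42.3, 40.5 and 38.6 TPM in batch 1, 34.2, 32.9, 30.7 and 31.0 in batch 2, and 33.2, 33.5, 29.4 and 32.5 in batch 3 (-0.36 in batch 2 and -0.35 in batch 3). *Klhl28*, of a family of ubiquitin ligase adaptors, had 24.04, 25.6, 23.6 and 21.6 TPM in batch 1, 18.4, 18.3, 16.5 and 18.2 in batch 2, and 14.6, 16.0, 14.9 and 18.5 in batch 3 (-0.57 in batch 3, adjusted p = 0.0192). *Klhl9* of the same family went from 102 to 108 TPM in batch 1 to 77.0 to 91.3 in batch 2 and 72.9 to 84.4 in batch 3 (-0.40). Batch 1 stood clear of both later batches in all 3. The other named genes of this kind were *Thap2* (-0.47), *Zkscan3* (-0.57), *Rbm12b2* (-0.55), *Zmym1* (-0.92), *Zfp738* (-0.45) and *Nufip2* (-0.49), log2 fold changes of batch 3 over batch 1 that were all called. *Nufip2*, whose transcript has the median GC content of 50.3%, kept -0.50 after GC centring (adjusted p = 0.0509). The other genes of this kind were nearer to 0 after it, *Klhl28* at -0.39, *Tra2b* at -0.17, *Klhl9* at -0.22, *Thap2* at -0.29, *Zkscan3* at -0.53, *Rbm12b2* at -0.37, *Zmym1* at -0.78 and *Zfp738* at -0.31. *Klhl9*, *Rbm12b2*, *Zmym1*, *Zfp738*, *Nufip2* and *Slc6a6* each overlap another gene on the other strand, so reads in those overlaps cannot be assigned.

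Of 448 zinc finger genes, a group chosen after their values were seen, 46 were called lower and 7 higher in batch 3 than in batch 1, beside 2.19% and 1.27% of all genes tested, and 135 were positive, with a median of -0.16 (-0.09 after GC centring). *Fbxl5*, which encodes the iron-sensing subunit of a ubiquitin ligase, was the 1 called gene of 11 tested iron genes, at 44.3, 49.4, 45.7 and 41.9 TPM in batch 1 and 37.6, 39.6, 38.4 and 37.5 in batch 3 (-0.25, adjusted p = 0.0307, and -0.11 after GC centring). *Tfrc*, the transferrin receptor, had 0.07 (adjusted p = 0.748). None of 13 mitochondrially encoded mRNAs was called between batches 3 and 1, and 1 was positive, with a median of -0.16. After GC centring 12 of the 13 were positive, with a median of 0.06. The mitochondrial share of counts was 4.06 to 4.63% in batch 1, 3.49 to 3.79% in batch 2, and 3.36, 4.16, 3.39 and 4.19% in batch 3. None of 61 ribosomal protein genes was called (24 positive, median -0.03). Of 36 complex I subunits *Ndufb2* was called lower (-0.33, adjusted p = 0.0295). Without mice 10 and 12, 1049 of 18584 genes were called higher and 927 lower. In that fit, which had no GC centring, 8 of the 13 mitochondrially encoded mRNAs were called lower and all 13 were negative (median -0.26). In the same comparison 6 of 36 complex I subunits, 4 of 61 ribosomal protein genes and 91 of the 448 zinc finger genes were called lower, and of these lists the zinc finger genes alone held genes called higher (14).

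Cell type markers differed among mice of a date as well as between dates. The 18 DA neuron genes summed to 5194, 3626, 4583 and 3582 TPM in batch 1, 5671, 4702, 3892 and 2932 in batch 2, and 3969, 2023, 4607 and 1782 in batch 3. Mice 10 and 12 lay lowest, and the other 2 mice of batch 3 lay inside the range of batch 1. *Th* read 773, 480, 729 and 495 TPM in batch 1, 885, 673, 581 and 409 in batch 2, and 561, 242, 734 and 185.2 in batch 3 (log2 fold change of batch 3 over batch 1 -0.54, adjusted p = 0.358). *Slc6a3*, the dopamine transporter, ran from 360 TPM in mouse 12 to 1584 in mouse 5, also the lowest and highest mice for *Th* (-0.49, adjusted p = 0.387). All 18 genes were negative in batch 3 against batch 1 with a median of -0.41, and 9 of 18 in batch 2 with a median of -0.03. Without mice 10 and 12, 10 of 18 were positive and the median was 0.07.

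Where 2.19% of all genes were called lower in batch 3 than in batch 1, *Aldh1a1* was the 1 called member of the DA list. It marks ventral SN neurons and makes retinoic acid, and it lies on chromosome 19 from 20492715 to 20643465 (ENSMUSG00000053279.8). Its levels were 686, 561, 545 and 576 TPM in batch 1, 597, 668, 658 and 576 in batch 2, and 430, 453, 485 and 409 in batch 3. Batch 3 lay under all other mice, and mice 10 and 12 were not set apart from mice 9 and 11. The log2 fold change against batch 1 was -0.43 (SE 0.0838, adjusted p = 0.027), it was -0.38 without mice 10 and 12 (adjusted p = 0.0265) and -0.34 after GC centring, and against batch 2 it was -0.48 (adjusted p = 0.368).

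*Anxa1*, which encodes annexin A1, a marker of a ventral subset of *Aldh1a1*-positive DA neurons, was chosen after its values were seen. It lies next to *Aldh1a1* on chromosome 19, from 20373428 to 20390944 (ENSMUSG00000024659.15), and overlaps *1500015L24Rik*. It read 33.4, 30.2, 17.6 and 21.0 TPM in batch 1, 22.9, 30.7, 31.7 and 22.5 in batch 2, and 10.7, 14.1, 13.7 and 11.3 in batch 3. All 4 mice of batch 3 were lowest. The log2 fold change against batch 1 was -1.05 (SE 0.187, adjusted p = 0.0212) and against batch 2 -1.10 (adjusted p = 0.368 with edgeR and 0.000169 with DESeq2), and GC centring left -0.91 against batch 1. In PFF mice at 11% O2 the same difference of batch 3 over batch 1 was -0.42 and in monomer mice at 11% O2 it was 0.60.

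Endothelial genes had positive values in batch 3. Their 13 markers summed to 452, 507, 483 and 454 TPM in batch 1, 439, 543, 509 and 567 in batch 2, and 522, 737, 509 and 758 in batch 3, highest in mice 10 and 12. All 13 were positive in batch 3 against batch 1 with a median of 0.46. *Cldn5*, *Flt1*, *Abcb1a*, *Slc2a1* and *Kdr* were called higher, where 1.27% of all genes were. *Cldn5*, a tight junction protein of the blood-brain barrier, had 65.1, 77.7, 65.0 and 61.3 TPM in batch 1 and 81.4, 113, 77.3 and 121 in batch 3 (0.54, adjusted p = 0.0445). *Flt1*, a receptor for VEGF, had 9.84, 11.9, 11.2 and 9.64 TPM in batch 1 and 12.0, 18.4, 13.0 and 22.6 in batch 3 (0.62, adjusted p = 0.0455). Mice 9 and 11 stood near the top of batch 1 in both genes, and GC centring left 0.36 for *Cldn5* and 0.62 for *Flt1*. Without mice 10 and 12 neither was called (0.23 and 0.22), and of the 13 markers 8 were positive, 0 were called higher and 1 lower (*Slco1a4*), with a median of 0.21. In the other groups the median of the DA list was -0.74 (PFF at 11% O2, batch 3 over 1), -0.61 (monomer at 21% O2, batch 2 over 1) and -0.36 (monomer at 11% O2, batch 3 over 1), and that of the endothelial list 0.48, 0.41 and 0.90. The part of the mix of tissue in these differences was not tested.

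Mural and meningeal genes differed between mice of a date. Of 9 pericyte genes *Kcnj8* (0.59, adjusted p = 0.0428) and *Abcc9* (0.49, adjusted p = 0.0352), the subunits of 1 ATP-sensitive potassium channel, were called higher in batch 3 than in batch 1. Of all genes tested 1.27% were called higher there. *Abcc9* read 4.13, 4.54, 5.04 and 4.87 TPM in batch 1, 5.47, 6.09, 6.97 and 5.77 in batch 2, and 7.14, 5.44, 7.17 and 6.51 in batch 3, all later mice above batch 1, and GC centring left 0.56. Leptomeningeal fibroblast genes, markers of the membranes over the brain, summed to 83.1, 199, 85.7 and 93.3 TPM in batch 1, 114, 190, 146 and 349 in batch 2, and 101, 233, 74.8 and 139 in batch 3. Batches 1, 2 and 3 each held a mouse at 199 TPM or above, and none of the 14 genes was called. Of the 14, 12 were positive in batch 3 against batch 1 (median 0.27). Without mice 10 and 12, 1 of the 14 was positive (median -0.44) and none was called. In that fit 6 of the 9 pericyte genes were positive, with a median of 0.14 beside 0.42 with all mice. Of these 9, 1 was called higher, where 1049 of 18584 genes were. Red cell genes summed to 914 TPM in mouse 7 and 2384 TPM in mouse 12, and batches 2 and 3 each held low and high mice.

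Glial lists held few called genes, where 1.27% of all genes were called higher in batch 3 than in batch 1. Of 15 microglia genes 14 were positive in batch 3 against batch 1 with a median of 0.22, and *Cx3cr1*, the fractalkine receptor, was called, at 67.7, 71.7, 63.3 and 79.3 TPM in batch 1 and 98.7, 111, 85.8 and 98.5 in batch 3 (0.47, adjusted p = 0.0367). *Aif1*, which encodes IBA1, had 18.1 to 24.7 TPM in batch 1 and 24.7, 39.5, 21.5 and 36.6 in batch 3 (0.48, adjusted p = 0.138), highest in mice 10 and 12. Without these mice 8 of the 15 genes were positive with a median of 0.05, and none was called. None of 16 oligodendrocyte genes (median 0.09) and none of 15 astrocyte genes (median 0.11) was called, and of 13 genes of oligodendrocyte precursors *Olig2* was (0.45, adjusted p = 0.0487). Without mice 10 and 12, 1 oligodendrocyte gene and 4 genes of the precursors were called higher, where 1049 of 18584 genes were. None of 11 GABA neuron genes was called, and *Gad1* and *Gad2* had 0.12 and 0.06.

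**Figure D5:**
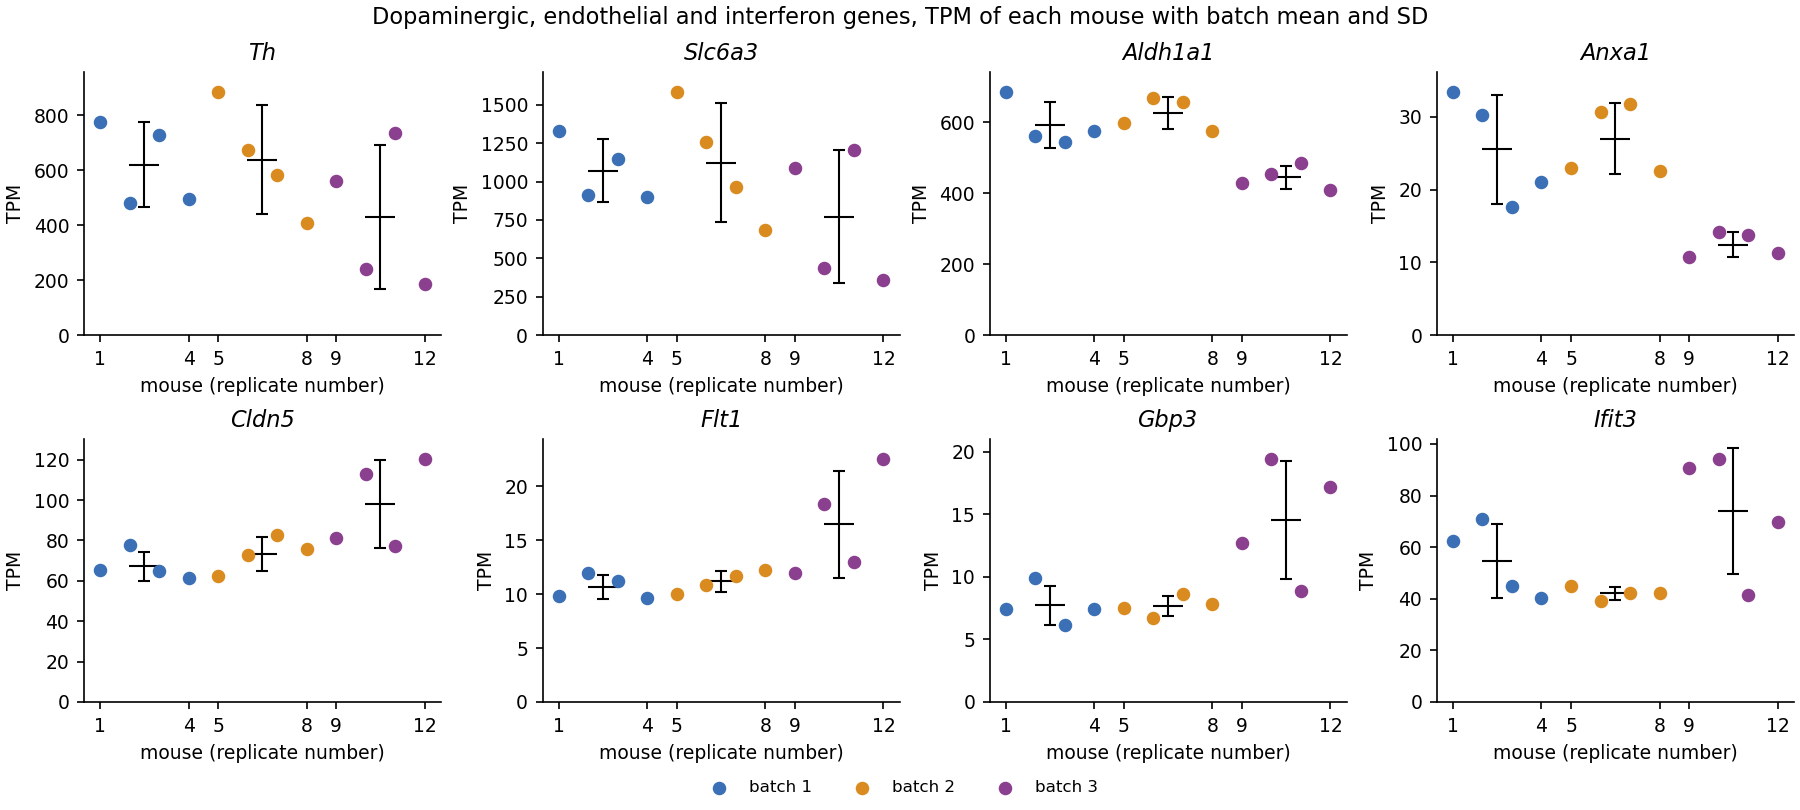
Levels of *Th*, *Slc6a3*, *Aldh1a1*, *Anxa1*, *Cldn5*, *Flt1*, *Gbp3* and *Ifit3* (TPM, linear axes) in each of the 12 mice, by batch, with the batch mean and SD (n = 4). *Th* and *Slc6a3* are lowest and *Cldn5* and *Flt1* highest in mice 10 and 12 of batch 3, while *Aldh1a1* and *Anxa1* are low in all 4 mice of that batch.

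Interferon-stimulated genes had positive values in batch 3 against both earlier dates. Against batch 1, 2 of 20 were called higher, where 1.27% of all genes were. All 20 were positive against batch 1 (median 0.29) and against batch 2 (median 0.56), and 4 of 20 were positive for batch 2 over batch 1. *Gbp3*, a guanylate-binding protein, read 7.45, 9.89, 6.14 and 7.46 TPM in batch 1, 7.48, 6.73, 8.59 and 7.81 in batch 2, and 12.7, 19.4, 8.85 and 17.2 in batch 3 (0.91 against batch 1, SE 0.205, adjusted p = 0.034). *Ifit3*, which shares reads with its near copy *Ifit3b*, had 62.5, 70.8, 45.1 and 40.2 TPM in batch 1, 39.1 to 45.1 in batch 2, and 90.5, 94.3, 41.4 and 69.7 in batch 3 (0.43, adjusted p = 0.216). Mouse 11 stood with the earlier batches in both genes. *Gbp3* and *Lgals3bp* (0.44, adjusted p = 0.029) were called, *Tap2* of 9 MHC class I genes was too (0.45, adjusted p = 0.0295), and without mice 10 and 12 *Gbp3* had 0.47 (adjusted p = 0.107). Without those mice 15 of 20 interferon genes were positive against batch 1 (median 0.10) with 1 called, *Lgals3bp*, and 18 of 20 were positive against batch 2 (median 0.32). *Gbp3*, *Lgals3bp* and *Tap2* were named after their values were seen.

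Some genes varied most within a date. Among the 10 genes of at least 5 TPM with the largest spread inside batches, *Igkc*, an immunoglobulin light chain, stood at 296 TPM in mouse 8 and at 0.453 to 33.8 in the others. *Ttr*, which the choroid plexus makes in bulk, ran from 4.33 TPM in mouse 10 to 279 in mouse 6. The pseudogene *Vdac3-ps1* was read at 137 and 130 TPM in mice 6 and 8 and at 6.61 to 14.0 in the other 10. The set also held neuronal genes and the small nuclear RNA *Rn7sk*. *Slc17a6*, the vesicular glutamate transporter of the subthalamic and midbrain cells, had 26.0, 47.8, 55.7 and 13.7 TPM in batch 1, 58.3, 39.7, 13.1 and 35.3 in batch 2, and 42.8, 7.44, 42.7 and 9.59 in batch 3. *Nts*, *Adcyap1* and *Sst* were likewise low in mice 4, 10 and 12, for instance *Adcyap1* at 4.77, 2.55 and 2.92 TPM in these mice against 5.98 to 31.2 in the other 9. *Slc17a6* was as low in mouse 7 of batch 2 as in mouse 4. *Gh*, growth hormone of the pituitary, was at 40.8 TPM in mouse 2 and at most 0.307 in every other mouse.

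Many of the differences between batches 3 and 1 had the same sign in other mice of the same dates. Between batches 3 and 1 of the PFF mice at 11% O2, which share no mouse with the 12, 1367 of 17873 genes were called (7.65%), 3.95% higher and 3.7% lower in batch 3. Of the 626 genes, 219 were among them, which is 35.0% of the 626 and 16.0% of the 1367, and all 219 had the same sign. Of the 625 tested there 607 had the same sign (97.1%, beside 75.6% of all genes tested in both groups), with medians of 0.28 for genes higher and -0.26 for genes lower in the 12 mice. That count of 1367 ran from 18 to 2552 as single mice were left out and was 0 with all mice of the group. In monomer mice at 11% O2 no gene was called between these dates (1741 at an unadjusted p under 0.05), and 477 of 624 genes had the same sign (76.4%, beside 60.5% of all genes). Across genes these log2 fold changes of batch 3 over batch 1 correlated with Pearson's r of 0.55 (17691 genes) and 0.32 (17646 genes), a description over genes that share libraries and base composition. For batch 2 over batch 1, r was 0.22 in PFF mice at 11% O2 and 0.24 in monomer mice at 21% O2. Of the 9 genes called there in the 12 mice, 8 and 6 had the same sign, beside 62.4% and 63.7% of all genes, and 0 were called in either group. For batch 3 over batch 2, r was 0.05 in PFF mice at 11% O2, where 55.0% of all genes had the same sign. The GC tilt, set against the 42 kept mice, had medians of -0.12 in batch 1 and 0.18 in batch 3 of the PFF mice at 11% O2, -0.16 in batch 1 and 0.06 in batch 2 of the monomer mice at 21% O2, and 0.03 in batch 1 and 0.02 in batch 3 of the monomer mice at 11% O2.

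The counts that the authors had corrected for batch held 565 of the 626 genes. On them the median absolute log2 fold change of these genes went from 0.365 to 0.145, 543 kept their sign and *Dbp* alone was called between batches 3 and 1 (0.77, adjusted p = 0.0326). The correction used the harvest batch as its term, so it was built to take out what is compared here.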

How the data were processed

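RNA was extracted and sequenced by a service company (poly(A) selection, NEBNext Ultra kit, paired reads of 150 bp). The authors aligned the reads to mm10 with STAR 2.7.5a, removed ribosomal DNA reads and, with Picard 2.21.9, duplicates, and counted reads per gene with featureCounts 2.0.1 on GENCODE vM24 without a strand option. The values used are the raw counts and TPM that the authors deposited for 55385 genes, and the batch-corrected counts they made with ComBat-seq for 19601 protein-coding genes in the 42 mice they kept. Library totals of the 12 mice were 13428753 to 16650480 counts, and intervals given by the fits cover the spread between mice.

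From these, counts were filtered with filterByExpr, scaled by TMM and tested with edgeR 4.0.16 (quasi-likelihood, batch as the factor) in R 4.3.3, with DESeq2 1.42.0 and limma 3.58.1 (trend and robust variance) on log2(TPM + 1) as alternatives. Positions come from GENCODE vM21. Transcript GC content was missing for 14 genes. The test was checked on simulated counts.

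The 12 mice, the 44 gene lists and the rule for named genes were chosen with earlier results of these data known. The rule takes from each pair of batches up to 5 higher and 5 lower genes, ranked by p, that were called and whose batches do not overlap, then the 10 smallest p across batches, up to 3 called genes per list, the 10 genes of mean TPM 5 or more with the largest spread within batches, 6 genes of an earlier account of these mice and the first 2 genes of each cell type list described. List members outside it, *Anxa1*, *Gbp3*, *Ifit3*, *Gh*, *Mafg*, *Gm10800*, *Galnt6* and genes listed by principal component were named after their values were seen. A gene that the rule takes is not reported here.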

Additional observations from a re-analysis of the deposited data

Results flagged for a closer look

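Among 70 named genes, each tested in 3 batches of 4 mice (210 groups), 9 groups (4.29%) held a mouse whose gap to the nearest of the other 3, divided by the range of the 4, exceeded the 95% critical value of Dixon's test. Chance gives about 1 in 20 groups. These values carry no explanation here, and the other 3 mice of the batch are given as a range.

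*Igkc* in mouse 8 stood at 296 TPM beside 2.58 to 6.43 (gap 0.833 of the range), and the leptomeningeal gene *Lum* in the same mouse at 10.3 beside 3.99 to 4.38 (0.899). *Gad2* in mouse 12 was the only other high value, at 288 beside 243 to 248 (0.845). The remaining 6 were low values. Mouse 11 was low for *Tra2b*, at 29.4 beside 32.5 to 33.5 (0.8294), and for *Ccdc117*, a gene of the earlier account, at 22.3 beside 24.6 to 24.9 (0.958). Mouse 4 was low for *Rbm12b2*, at 32.2 beside 39.5 to 41.0 (0.890). Mouse 6 was low for *Kmt2b*, at 31.2 beside 33.3 to 34.1 (0.850), and mouse 7 for *Klhl28*, at 16.5 beside 18.2 to 18.4 (0.886). Mouse 3 was low for *Zfp738*, at 8.36 beside 8.92 to 9.33 (0.889).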

How the results depend on the processing

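Counts of called genes depended on the fit. Across any batch, batches 2 and 1, and batches 3 and 1, the 104, 9 and 626 calls became 966, 586 and 1122 with DESeq2, 940, 445 and 1116 with no filter on low counts, 771, 497 and 1027 with all 42 kept mice in one fit, 0, 1 and 237 with limma on log2(TPM + 1), 0, 2 and 0 after GC centring, 0, 0 and 1 on the batch-corrected counts, and 1618, 701 and 1976 without mice 10 and 12. RLE size factors gave 61 for batches 2 and 1. Between batches 3 and 2 the count of 0 became 2 with DESeq2, 2 without mice 10 and 12 and 20 with no filter on low counts. Of these, GC centring, the omission of mice 10 and 12 and the robust variance of limma were chosen after seeing the data. The cause of these shifts was not tested. With all mice of a group, PFF mice at 11% O2 had 0 calls between batches 3 and 1 in place of 1367 and monomer mice at 11% O2 had 61 in place of 0.

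Leaving out each mouse in turn gave 0 to 650 calls across batches (0 without mouse 1, 2, 3 or 7), 0 to 246 for batches 2 and 1, 0 to 1248 for batches 3 and 1, and 0 to 0 for batches 3 and 2. In the other groups it gave 0 to 81 (batches 2 and 1), 18 to 2552 (3 and 1) and 0 to 1 (3 and 2) in PFF mice at 11% O2, 287 to 2014 in monomer mice at 21% O2, 0 to 71 in monomer mice at 11% O2 and 0 to 0 for the difference in batch effect between PFF mice at 21% and 11% O2. Same-numbered PFF mice at 21% and 11% O2 shared only a number (10 pairs, correlations of their deviations -0.33 to 0.60, best match for 1 of 10), and the fit with the replicate block called 0 genes, as did the fit without it.

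For the 32 named gene differences, 671 alternative values were computed: 451 kept direction and call, 4 reversed and the rest kept direction only. GC centring ended 31 of the 32 calls with no reversal. The 4 reversals came on the batch-corrected counts for batch 3 over batch 1, with *Rln3* at 0.10, *Cldn5* at -0.39, *Flt1* at -0.14 and *Abcc9* at -0.0052. Depth of 13428753 to 16650480 counts and 4 mice per date limit what can be called: in simulated counts 35.4% of changes of 0.5 on the log2 scale were called across batches.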
